A study of Homo sapiens with 4 samples.

Results

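The genes described here are proteasome subunits, ubiquitin-activating and ubiquitin-conjugating enzymes with the UBE-named ligases, and ubiquitin-specific proteases (USPs) in OCI-Ly3 cells. They were taken by symbol, as every gene whose symbol opens with PSMA to PSMG, UBA, UBE or USP and then a digit, and the rule found 48 genes of the 4604 genes with a named probe. These 48 genes had 98 probes. Of the 48 genes, 41 had a probe with a value on all 4 arrays and were tested, among 3589 genes in all. Of these 41, 38 belong to the families by function. The other 3 share only the opening of a name: PSMA3-AS1, a long non-coding RNA, PSME3IP1, a protein that binds PSME3, and USP6NL, a GTPase-activating protein for Rab proteins.

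OCI-Ly3 is an established human lymphoma line, derived from a diffuse large B-cell lymphoma. Doxycycline switched on a short hairpin RNA that targets IKKa, the product of CHUK. Each of 4 two-colour arrays set doxycycline-treated cells (Cy5, 20 ng/ml) against cells without doxycycline (Cy3), always in this dye order, so that a dye bias of a probe is not removed. On 2 arrays both channels also had 12.5 uM MLN120b, an inhibitor of IKKb: for 3 h with 2 days of doxycycline, and for 24 h with 3 days. On the other 2 arrays neither channel had inhibitor, and doxycycline was given for 2 or 3 days. The arrays of a group are thus different time points, each hybridised once, and each SD below is over 2 arrays that differ in time. Separate cultures are not named in the labels, and the p-values therefore cover the spread over these 4 hybridisations, which may be technical. Cells of both channels are labelled as the same line, and doxycycline in cells without the hairpin was not analysed here.

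Values are log ratios of the channels, and base 2 was assumed because no base is stated with them. Their direction is not stated with them. It is taken as doxycycline over no doxycycline, which is the likely order because CHUK then lies below 0 on every array. With the opposite order every sign given here would turn. CHUK had -1.30 and -1.01 at 2 and 3 days with inhibitor, against -0.59 and -0.87 at 2 and 3 days without inhibitor. A log ratio holds no expression level, so neither the levels of these genes nor the identity of the cells could be checked on the arrays.

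Ubiquitin is a small protein that cells attach to other proteins as a tag. An E1 enzyme activates it, an E2 enzyme carries it, and an E3 ligase passes it to the target, where E4 factors can lengthen the chain. Chains of some linkages send the target to the proteasome, a barrel-shaped protease capped by regulatory particles, and USPs take chains off again. Classical NF-kB signalling uses both sides of the system: non-degradative chains assemble the IKK complex, and degradative chains on IkBa let NF-kB enter the nucleus. Lymphoma cells of the activated B-cell type rely on this signalling.

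Over the 4 arrays together, 6 of the 41 tested genes fell and none rose, beside 2.7% of all genes that rose. They were the deubiquitinases USP25, USP7, USP6 and USP9X, the E1 enzyme UBA6 and the E4 ligase UBE4A. That is 14.6% of the tested genes, beside 8.47% of all 3589 genes that fell in the same limma test (adjusted p under 0.05). None of the 12 tested proteasome genes passed this test. Below 0 on all 4 arrays were 6 of 11 USPs, 7 of 15 enzymes of the E1 to E4 classes and 2 of 12 proteasome genes, beside 25.8% of all genes. Above 0 on all 4 arrays were 3 of the 41 genes, beside 15.5%. These counts are descriptions, and no difference between the classes was tested.

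**Figure D1:**
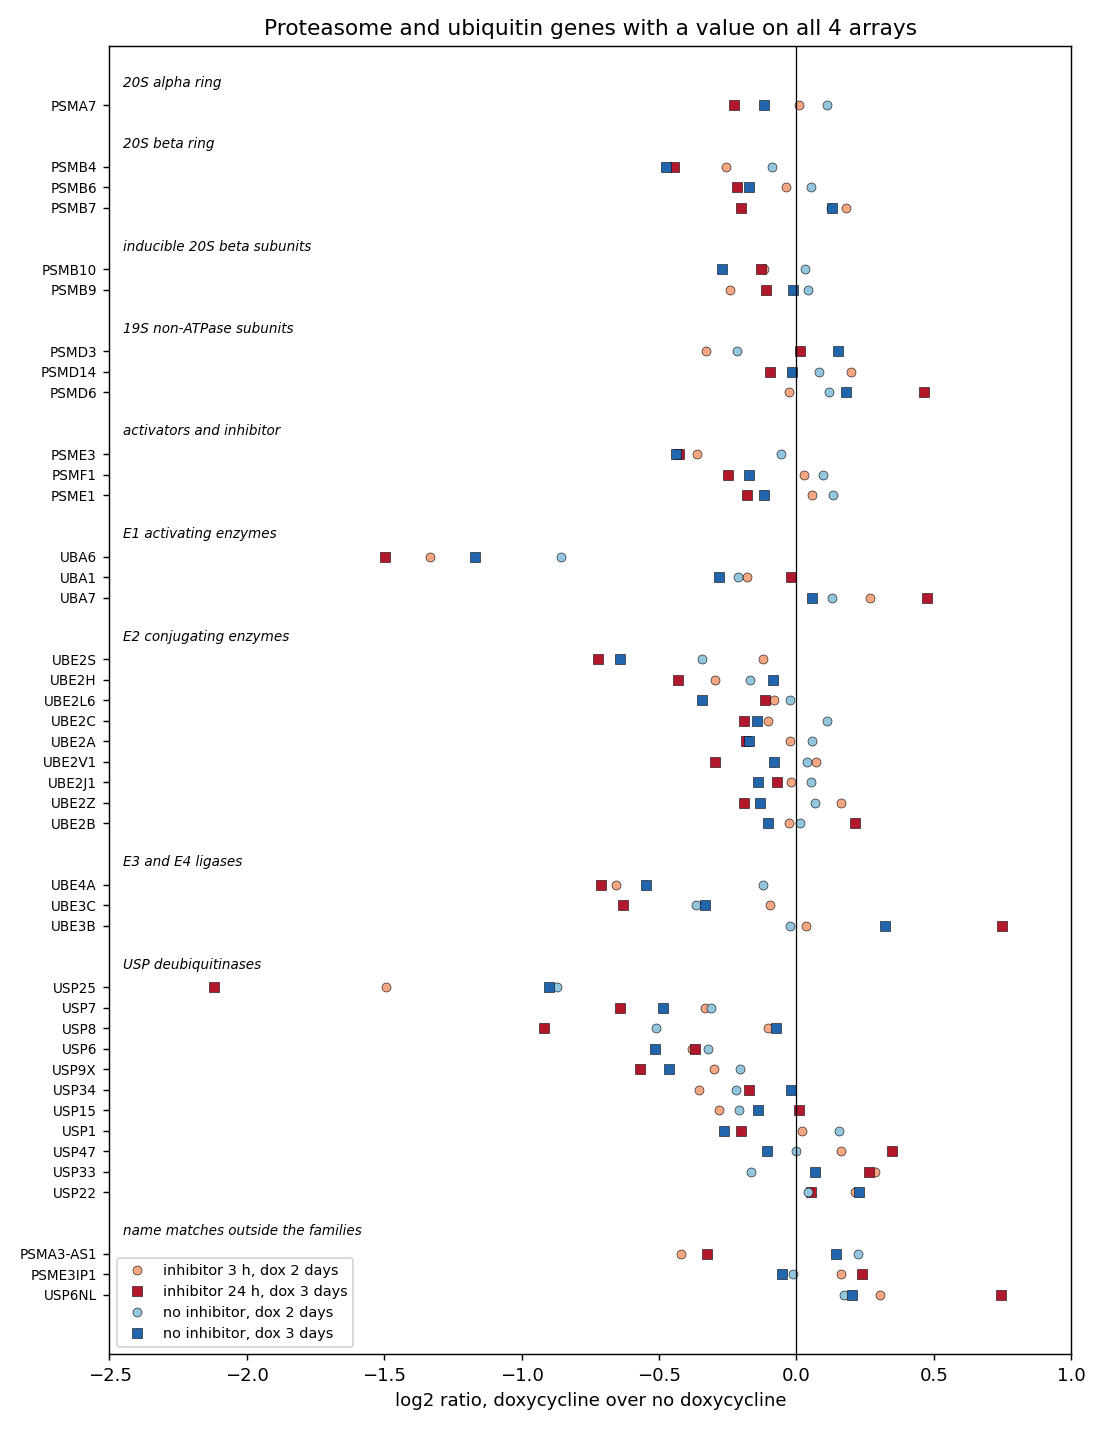
Log2 ratio of doxycycline over no doxycycline (x axis) for the 41 tested genes, a row each, sorted by role. Colours stand for the 4 arrays: orange and red with inhibitor, light and dark blue without, circles at 2 days and squares at 3 days. USP25 and UBA6 lie left of all other genes on all 4 arrays, and the proteasome rows lie between -0.47 and 0.47.

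USP25 encodes a deubiquitinase with described substrates among the TRAF adaptors of cytokine receptors and Toll-like receptors. It had log2 ratios of -1.49 and -2.12 at 2 and 3 days with inhibitor, against -0.87 and -0.90 at 2 and 3 days without inhibitor. All 4 values were below 0, and the groups did not overlap. The mean was -1.81 ± 0.44 with inhibitor (SD, n = 2), 3.50-fold lower in the induced cells, and -0.89 ± 0.02 without inhibitor, 1.85-fold lower. Among all 3589 genes it had rank 3 from the lowest with inhibitor and rank 19 without. Its fall passed limma over the 4 arrays (mean -1.35, SE 0.11, adjusted p = 0.00352) and with inhibitor (adjusted p = 0.0078), and it did not pass without inhibitor (adjusted p = 0.155). The gene rested on 1 probe.

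UBA6 encodes the second E1 for ubiquitin beside UBA1, and it also activates the ubiquitin-like protein FAT10. It had -1.33 and -1.50 at 2 and 3 days with inhibitor, against -0.86 and -1.17 at 2 and 3 days without inhibitor. Every array was below -0.85 and the groups did not overlap. The mean was -1.42 ± 0.12 with inhibitor (SD, n = 2) and -1.01 ± 0.22 without, 2.67-fold and 2.02-fold lower. UBA6 had rank 14 from the lowest with inhibitor and rank 12 without. It passed limma over the 4 arrays (mean -1.21, SE 0.09, adjusted p = 0.00352) and with inhibitor (adjusted p = 0.0078). Without inhibitor its adjusted p of 0.0693 was the smallest in the test, shared by 5 genes, and did not pass. It too rested on 1 probe.

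UBE4A encodes a U-box ligase that extends ubiquitin chains. It had -0.66 and -0.71 at 2 and 3 days with inhibitor, against -0.12 and -0.55 at 2 and 3 days without inhibitor. The array of 2 days without inhibitor was the closest to 0. The mean was -0.68 ± 0.04 with inhibitor (SD, n = 2), 1.61-fold lower, and -0.33 ± 0.30 without. The fall passed limma over the 4 arrays (mean -0.51, SE 0.10, adjusted p = 0.0279) and with inhibitor (adjusted p = 0.0414), on 1 probe. With inhibitor its call ended after median centring (adjusted p = 0.0546) and without either array of doxycycline alone (0.0663 in both), and the call over the 4 arrays also ended without either of these (0.0604 and 0.225).

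With inhibitor, USP25, UBA6 and UBE4A were the 3 of 41 genes that fell, 7.32%, beside 3.04% of all genes, and none rose, beside 1.53% (4.57% of all genes in either direction). At an unadjusted p under 0.05 there were 15 of 41, beside 28.3% of all genes. Both inhibitor arrays were below 0 for 22 of the 41 genes, beside 38.9%, and above 0 for 7, beside 32.0%. Both arrays without inhibitor were below 0 for 17, beside 35.7%, and above 0 for 6, beside 24.6%. Without the 3 h inhibitor array 10 of the 41 passed with inhibitor (24.4%, beside 23.9% of all genes), and 2, USP25 and UBA6, passed without either array of doxycycline alone (4.88%, beside 0.947%). Without inhibitor none passed in limma, beside 0.0% of all genes, with 7 of 41 at an unadjusted p under 0.05, beside 11.1% of all genes. Without either inhibitor array USP25, UBA6, UBE2S and USP6 passed there (9.76%, beside 6.44% of all genes). By size alone, UBA6, UBE4A and USP25 were more than 1.5-fold lower on both inhibitor arrays, beside 2.4% of all genes, and none of the 41 was more than 1.5-fold higher on both, beside 0.836%. USP25 and UBA6 were more than 1.5-fold lower on both arrays without inhibitor as well, beside 0.919% there and 0.669% on all 4 arrays.

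The promoters of the 3 genes called with inhibitor are shown because they are the regulatory sequence at hand for these genes. They are RefSeq sequences of GRCh38.p14, from 250 bases before to 50 bases after the annotated start, written 5′ to 3′. Capitals mark GC boxes (GGGCGG on either strand), which are bound by Sp1-type factors. The windows are chr21:15729732-15730031, plus strand, for USP25, chr4:67701106-67701405, minus strand, for UBA6, and chr11:118359350-118359649, plus strand, for UBE4A.
USP25: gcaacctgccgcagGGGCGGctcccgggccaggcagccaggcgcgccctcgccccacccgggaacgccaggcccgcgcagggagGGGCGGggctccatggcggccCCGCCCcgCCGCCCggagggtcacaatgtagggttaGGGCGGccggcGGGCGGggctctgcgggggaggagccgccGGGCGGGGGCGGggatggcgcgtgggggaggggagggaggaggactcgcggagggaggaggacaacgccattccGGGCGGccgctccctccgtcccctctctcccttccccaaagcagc
UBA6: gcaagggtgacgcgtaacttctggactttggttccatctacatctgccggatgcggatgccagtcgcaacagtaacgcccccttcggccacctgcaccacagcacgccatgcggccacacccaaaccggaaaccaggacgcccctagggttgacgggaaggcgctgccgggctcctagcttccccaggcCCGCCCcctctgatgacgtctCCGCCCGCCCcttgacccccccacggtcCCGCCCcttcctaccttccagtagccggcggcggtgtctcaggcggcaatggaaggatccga
UBE4A: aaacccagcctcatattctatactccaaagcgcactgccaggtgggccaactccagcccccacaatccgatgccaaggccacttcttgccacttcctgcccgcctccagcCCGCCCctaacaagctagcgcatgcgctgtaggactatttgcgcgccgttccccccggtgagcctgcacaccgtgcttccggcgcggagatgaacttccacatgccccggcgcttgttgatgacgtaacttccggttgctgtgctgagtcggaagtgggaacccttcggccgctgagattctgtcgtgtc
The USP25 window had a GC content of 79.0%, that of UBA6 66.0% and that of UBE4A 60.7%, against a median of 65.0% over the tested genes with a promoter entry. GC boxes were in 26 of 37 matched promoters of the 48 genes (70.3%), beside 68.1% of the tested genes and 44.6% of all 27305 promoters in the table. The kappaB spelling GGGANTTTC was in none of the 37 on either strand, beside 1.7% of the tested genes and 1.3% of all promoters. The antioxidant response element core TGACNNNGC, bound by NFE2L1 and its relatives, was in 6 of 37 (16.2%, beside 15.5% and 13.6%), and the E-box CACGTG in 5 (13.5%, beside 10.7% and 7.4%). No overlaps between these motifs were resolved, and such matches are letters in a window, not binding sites.

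The other 3 called genes passed over the 4 arrays and did not pass the adjusted threshold within either group. All 3 were below 0 on every array, with an unadjusted limma p under 0.05 in each group. Such a p was found for 28.3% of all genes with inhibitor and 11.1% without. USP7, which deubiquitinates MDM2 and p53, had -0.33 and -0.64 at 2 and 3 days with inhibitor, against -0.31 and -0.49 at 2 and 3 days without inhibitor. USP9X, a large X-linked deubiquitinase with MCL1 among its substrates, had -0.30 and -0.57 with inhibitor, against -0.20 and -0.46 without. USP6, a hominoid oncogene product, had -0.38 and -0.37 with inhibitor, against -0.32 and -0.51 without. For each of these genes the values with and without inhibitor overlapped. The means over the 4 arrays were -0.44 ± 0.15, -0.38 ± 0.16 and -0.40 ± 0.08 for USP7, USP9X and USP6 (SD, n = 4), with limma adjusted p-values of 0.0312, 0.0444 and 0.0312. Both probes of USP7 and all 3 of USP9X with a value on all 4 arrays had means below 0, while USP6 rested on 1. Another USP7 probe, with values without inhibitor alone, had 0.24 and 0.51 at 2 and 3 days, and another USP9X probe had 0.17 at 2 days with inhibitor, against -0.17 and -0.04 without. USP6 arose as a fusion that includes USP32 sequence, and whether its probe also binds USP32 was not tested. All 3 calls ended without either array of doxycycline alone, which left USP25 and UBA6 called. With every measured probe averaged on each array the USP7 mean without inhibitor was -0.14 in place of -0.40, USP7 and USP9X were not called, and USP9X was also not called after median centring or without the 24 h inhibitor array.

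**Figure D2:**
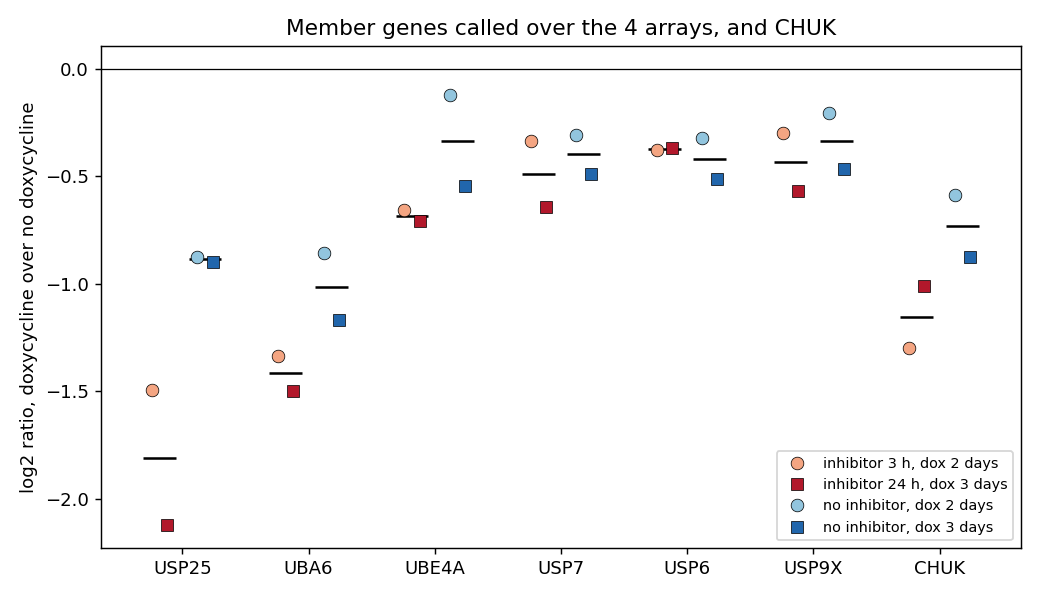
Log2 ratio of doxycycline over no doxycycline (y axis) for the 6 called genes and CHUK, with the 2 inhibitor arrays left of the 2 arrays without inhibitor. Points are arrays and horizontal lines are means of 2. USP25 and UBA6 lie below -0.85 on every array, and the other 4 called genes lie between -0.12 and -0.71.

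The remaining USPs lay on both sides of 0. USP8, which acts in endosomal sorting, had -0.11 and -0.92 with inhibitor, against -0.51 and -0.08 without, so that the day difference ran in opposite directions in the 2 groups. On the arrays left without the 3 h inhibitor array its estimate was -0.61, with the inhibitor group then the 1 array of -0.92. With every measured probe the USP8 mean without inhibitor was -0.01 in place of -0.29. USP34 and USP15 had means of -0.19 and -0.16 over the 4 arrays, and USP1, which acts on FANCD2 and PCNA, had -0.07. Above 0 were USP33 (0.11), USP47 (0.10) and USP22, the deubiquitinase of the SAGA coactivator complex. USP22 was above 0 on all 4 arrays, at 0.21 and 0.05 with inhibitor, against 0.04 and 0.23 without. The median over the 11 tested USPs was -0.26 with inhibitor and -0.17 without, beside -0.01 and -0.03 over all genes. With every probe averaged that had a value on an array, these medians were -0.19 and -0.05.

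Among the E1 enzymes, the values diverged. UBA1, the main E1 of ubiquitin, had -0.18 and -0.02 with inhibitor, against -0.21 and -0.28 without, with a mean of -0.17 ± 0.11 over the 4 arrays (SD, n = 4, limma adjusted p = 0.185). UBA7, the E1 of the interferon-induced modifier ISG15, was above 0 on all 4 arrays, with 0.27 and 0.48 with inhibitor, against 0.13 and 0.06 without. Its means of 0.37 ± 0.15 with and 0.09 ± 0.05 without inhibitor did not pass (limma adjusted p = 0.0957 and 0.82). These values rested on 1 of 3 UBA7 probes. Of the others, 1 had 0.76 at 3 days with inhibitor and 1 had -0.15 at 2 days without. With every measured probe UBA7 had 0.62 at 3 days with inhibitor and 0.03 at 2 days without. With the day block UBA7 was called higher over the 4 arrays and with inhibitor (limma adjusted p = 0.0467 and 0.0391). That setting called 31.2% and 25.3% of all genes in these tests. UBE2L6, the E2 for ISG15, lay on the other side of 0, with -0.08 and -0.11 with inhibitor, against -0.02 and -0.34 without.

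None of the 9 tested E2 enzymes passed in the 4 tests as fitted, and UBE2S was the lowest. UBE2S, which extends chains built by the anaphase-promoting complex in mitosis, had -0.12 and -0.72 with inhibitor, against -0.34 and -0.64 without. It was lower at 3 days in both groups, its 3 probes had means of -0.41, -0.35 and -0.61, and its mean of -0.46 ± 0.28 (SD, n = 4) had a limma adjusted p of 0.0513. UBE2S was called lower over the 4 arrays after scaling to equal spread (limma adjusted p = 0.0143) and with the day block (0.00953). These settings called 17.8% and 31.2% of all genes. The estimate of UBE2S was -0.61 on the arrays left without the 3 h inhibitor array. UBE2C, which starts chains for the same complex, had a mean of -0.08. UBE2H was below 0 on all 4 arrays with a mean of -0.25 ± 0.15 (limma adjusted p = 0.0856). It was called lower over the 4 arrays with the day block (limma adjusted p = 0.0367), beside 31.2% of all genes called. A further UBE2H probe had 1.12 at 3 days with inhibitor, and with every measured probe the value there was -0.04 in place of -0.43 and the mean -0.14. UBE2V1, the inactive partner of UBE2N in building non-degradative chains for IKK signalling, had 0.07 and -0.30 with inhibitor, against 0.04 and -0.08 without. UBE2Z, the E2 that takes its cargo from UBA6, had 0.16 and -0.19 with inhibitor, against 0.07 and -0.13 without (named after its values were seen). The other E2 genes, UBE2A, UBE2B and UBE2J1, had means of -0.08, 0.02 and -0.04. The median of the 9 was -0.10 with and -0.04 without inhibitor.

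The ligases named for the UBE series also diverged. UBE3C, a HECT ligase that works at the proteasome, had -0.10 and -0.63 with inhibitor, against -0.37 and -0.33 without, with a mean of -0.36 ± 0.22 (SD, n = 4, limma adjusted p = 0.0673). UBE3B, another HECT ligase, had 0.04 and 0.75 with inhibitor, against -0.02 and 0.32 without. It was the highest of this class, at a mean of 0.27 ± 0.35, yet its 3 probes had means of -0.15, 0.73 and 0.24. Over the 4 arrays, UBE3C was called lower and UBE3B higher with the day block (limma adjusted p = 0.0302 and 0.0387). UBE3C was also called lower after scaling to equal spread (limma adjusted p = 0.0333). The day block called 31.2% and the scaling 17.8% of all genes. On the arrays left without the 3 h inhibitor array the estimates of UBE3C and UBE3B were -0.49 and 0.45.

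None of the 12 tested proteasome genes passed in the 4 tests as fitted. They are a part of the complex, with PSMA7 alone from the alpha ring and no gene of the cap ATPases (PSMC). With the doxycycline day as a block, PSMB4 and PSME3 were called lower over the 4 arrays (limma adjusted p = 0.0188 and 0.0224) and with inhibitor (0.0393 and 0.0363), where 31.2% and 25.3% of all genes were called. On the arrays left without the 3 h inhibitor array, the estimates of PSMB4, PSME3 and PSMD6 were -0.36, -0.34 and 0.31, with 1 array in the inhibitor group. In the catalytic barrel, PSMA7 of the alpha ring had 0.01 and -0.23 with inhibitor, against 0.11 and -0.12 without. In the beta ring, PSMB4 was the lowest of the 3 tested genes and the only 1 of them below 0 on all 4 arrays. It had -0.26 and -0.45 with inhibitor, against -0.09 and -0.47 without (mean -0.32 ± 0.18, SD, n = 4, limma adjusted p = 0.074). PSMB7, which carries the trypsin-like activity, had 0.18 and -0.20 with inhibitor, against 0.13 and 0.13 without, and PSMB6, which carries the caspase-like activity, had a mean of -0.09. The interferon-inducible subunits that replace them in the immunoproteasome, PSMB9 and PSMB10, were below 0 on both inhibitor arrays. PSMB9 had -0.24 and -0.11 with inhibitor, against 0.04 and -0.01 without, and PSMB10 had -0.12 and -0.13 with inhibitor, against 0.03 and -0.27 without. Neither passed (limma adjusted p = 0.341 and 0.547 with inhibitor). Another PSMB10 probe had 0.69 at 2 days with inhibitor, and with every measured probe PSMB10 had 0.15 at 2 days and a mean of 0.01 with inhibitor.

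The tested subunits of the regulatory caps, which did not include the ATPases, lay in a similar range. Of the lid subunits, PSMD6 was the highest, with -0.03 and 0.47 with inhibitor, against 0.12 and 0.18 without. PSMD3 had -0.33 and 0.01 with inhibitor, against -0.22 and 0.15 without. PSMD14, the deubiquitinase of the lid, had 0.20 and -0.10 with inhibitor, against 0.08 and -0.02 without. Among the alternative caps, PSME3, the nuclear activator, had -0.36 and -0.43 with inhibitor, against -0.06 and -0.44 without (mean -0.32 ± 0.18, SD, n = 4, limma adjusted p = 0.0646). PSME1, a subunit of the interferon-inducible activator, had a mean of -0.03 and the inhibitor protein PSMF1 one of -0.07. Over the 12 proteasome genes the median was -0.12 with and -0.02 without inhibitor, and 2 of the 12 had an unadjusted limma p under 0.05 over the 4 arrays, beside 31.8% of all genes.

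**Figure D3:**
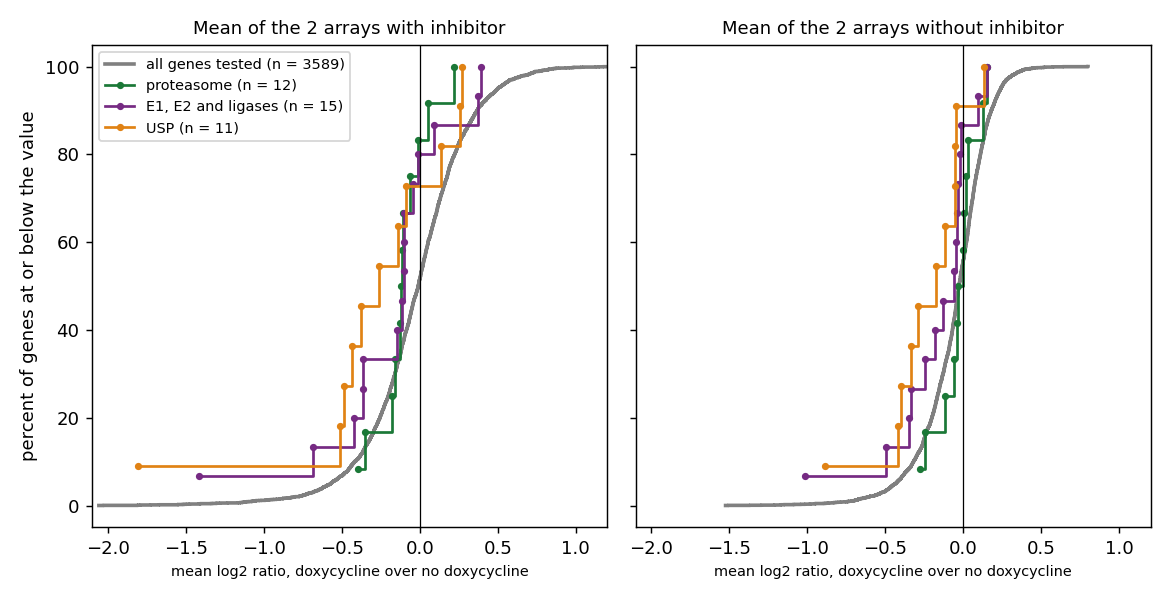
Cumulative percent of genes (y axis) at or below a mean log2 ratio (x axis), with inhibitor on the left and without on the right, for all 3589 genes in grey and for 12 proteasome genes, 15 enzymes of the E1 to E4 classes and 11 USPs in colour. The medians of the 3 classes with inhibitor are -0.12, -0.10 and -0.26, and each class ends at or below 0.39 on the high side.

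With inhibitor the 3-day array was below the 2-day array for 27 of the 41 genes, beside 55.8% of all genes, and without inhibitor for 29, beside 60.7%. The 3-day array was below the 2-day array, in both groups, for 8 of 12 proteasome genes and 7 of 9 E2 genes, against 4 of 11 USPs and 43.2% of all genes. The median proteasome gene was -0.03 and -0.19 at 2 and 3 days with inhibitor, and 0.07 and -0.12 at 2 and 3 days without. With 1 array for each day and inhibitor status, the day was not tested gene by gene, and with inhibitor the longer doxycycline time came with a longer inhibitor time. Of the housekeeping genes, 8 of 9 were lower at 3 days in both groups, and their median was -0.22 and -0.55 with inhibitor, against -0.21 and -0.37 without. Their part in the pattern was not tested.

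The comparison of the arrays with and without inhibitor asks whether the doxycycline ratio differed between these groups. CHUK, the hairpin's target, itself differed by -0.42 (95% interval -0.87 to 0.02). The part of this knockdown difference in the other differences was not tested. None of the 41 genes passed in limma, beside 0.0% of all genes, with 2 of 41 at an unadjusted p under 0.05, beside 4.82% of all genes. The largest difference among the 41 was that of USP25, at -0.92 (SE 0.23, adjusted p = 0.989). Its 95% interval, not adjusted for the number of genes, ran between -1.46 and -0.38, and the difference was -0.62 at 2 days and -1.22 at 3 days. The difference was -1.23 without the 3 h inhibitor array, which leaves 1 inhibitor array, and -0.35 after the arrays were scaled to equal spread. UBA6 differed by -0.40 (interval -0.83 to 0.02), which became 0.06 after that scaling, and UBE4A by -0.35 (interval -0.80 to 0.10). Groups that did not overlap were found for 6 genes lower with inhibitor, beside 11.2% of all genes, and for 6 higher with inhibitor, beside 19.4%. Signs were opposite with and without inhibitor on every array for 2 genes, PSMA3-AS1 and PSME3IP1, beside 4.76%. USP6NL, also outside the families, was above 0 on all 4 arrays. It had 0.30 and 0.75 with inhibitor, against 0.17 and 0.20 without (limma adjusted p = 0.0563 over the 4 arrays). Over the 4 arrays it was called higher after scaling to equal spread (limma adjusted p = 0.0288) and with the day block (0.0213). These settings called 17.8% and 31.2% of all genes. Another USP6NL probe had -0.13 with and -0.12 without inhibitor at 2 days. With every measured probe the 2-day values of USP6NL were 0.16 with and 0.075 without inhibitor. At 3 days log ratios were wider with inhibitor over all genes, with a median absolute deviation of 0.26 against 0.18 without, and at 2 days 0.17 against 0.11.

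Of the genes with 2 or more probes measured on all 4 arrays, 7 of 19 had probe means on both sides of 0, a share of 36.8%, beside 43.3% over all genes with several probes. UBE2B, a RAD6-type E2, was the clearest case, with 6 probes whose means ran between -0.29 and 0.50. One of its probes stood at 1.83 on the array of 3 days with inhibitor, where the other 5 lay between -0.28 and 0.11. USP34 had probe means of -0.59, -0.09 and 0.11. Of the 6 called genes, 4 rested on 1 probe, so agreement of probes could not be read for USP25, UBA6, UBE4A and USP6.

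**Figure D4:**
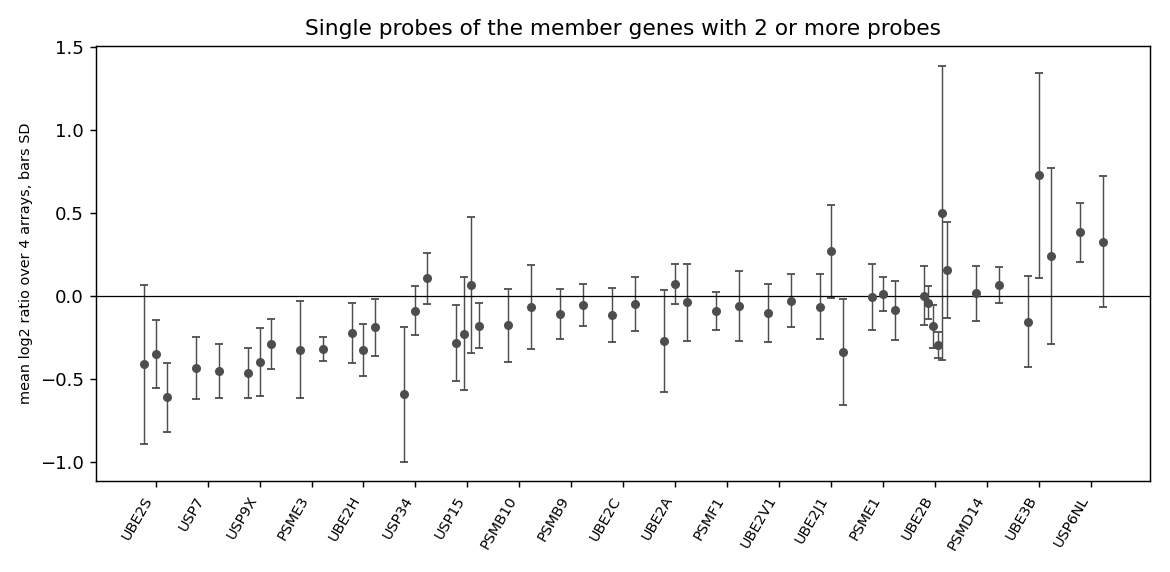
Mean log2 ratio over the 4 arrays (y axis) of each probe with a value on all 4 arrays, for the 19 genes with 2 or more such probes, sorted by gene mean, with bars of 1 SD over the arrays. The plotted probes of USP7, USP9X and UBE2S have means below 0, while those of UBE2B, UBE3B, UBE2J1, UBE2A, USP15, USP34 and PSME1 lie on both sides.

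Of the 48 genes, 7 had no probe with a value on all 4 arrays and were not tested. PSME4, the large nuclear activator of the proteasome, was low where measured, at -0.54 and -0.96 with inhibitor, against -0.90 at 2 days without. UBE4B, the relative of UBE4A, had 0.93 at 2 days with inhibitor, against 0.06 and 0.37 without. USP12 had -0.12 and 0.78 and PSMB1 -0.42 and 0.19 at 2 and 3 days without inhibitor, with no value on the inhibitor arrays. USP48 had 0.50 at 3 days with inhibitor, against 0.02 and 0.11 without. USP24 had 0.39 and -0.02 with inhibitor, against -0.16 at 3 days without, and USP54 had 0.04 at 2 days without inhibitor. Over all probes of the 48 genes, 24.5% had an empty cell on some array, and 33.2% of all probes with 1 gene did.

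Around these families, 25 of 71 listed ubiquitin pathway genes were tested. Over the 4 arrays 4 of the 25 fell and none rose, 16.0%, beside 8.47% of all genes. They were CUL4B, a cullin scaffold (mean -0.51 ± 0.15, SD, n = 4), and 3 deubiquitinases of other classes: OTUB1 (-0.48 ± 0.24), CYLD, which trims non-degradative chains in NF-kB signalling (-0.43 ± 0.28), and TNFAIP3, which encodes the feedback inhibitor A20 (-0.61 ± 0.39), with limma adjusted p-values of 0.0222, 0.0402, 0.0248 and 0.024. With inhibitor CYLD and TNFAIP3 fell, at means of -0.67 and -0.88 (limma adjusted p = 0.0257 and 0.0304). These calls ended without either array of doxycycline alone, and that of OTUB1 also after median centring. The list's median was -0.01 with and -0.04 without inhibitor.

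Across the whole table the arrays held values for 11722 to 14375 probes, and the array medians over the tested genes lay between -0.06 and -0.01. Of the 9 tested housekeeping genes 7 had means below 0 in either group, 4 were called lower over the 4 arrays (44.4%, beside 14.6% of the 41 genes and 8.47% of all genes), with a median of -0.39 with and -0.42 without inhibitor, further below 0 than the -0.12 and -0.06 of the 38 family members. With inhibitor, all 5 T cell markers had means above 0 (median 0.16), beside 1738 of 3589 genes. Below 0 with inhibitor were 3 of 5 B cell markers (median -0.06) and 2 of 3 myeloid markers (median -0.03), beside 1851 genes. Without inhibitor 4 of 5 T cell markers lay above 0, and 3 of 5 B cell and 1 of 3 myeloid markers below. None of these markers passed in the 4 tests. The part of the housekeeping genes in the results above was not tested.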

How the data were processed

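The table holds 1 log2 ratio of the channels per probe and array, as the authors deposited it. Neither the base nor the direction is stated. Base 2 was assumed, the range of -5.61 to 7.49 does not settle it, and every fold given here depends on it. Per the labels, Trizol RNA was reverse transcribed from oligo dT and coupled to Cy5 or Cy3. How background was corrected, how ratios were normalised and why some cells are empty is not stated in these sources, so signal over background is unknown and 4 arrays limit the precision. Probes were named by the platform annotation (10169 of 15246 had 1 symbol), with symbols updated through RefSeq GRCh38.p14.

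Probes with a value on all 4 arrays were averaged per gene. Then limma 3.58.1 (R 4.3.3) was fitted over 3589 genes with a mean for each group of 2 arrays. The mean over all arrays, with inhibitor and without inhibitor were tested against 0, and the groups against each other, two-sided, with Benjamini-Hochberg adjustment over all genes and calls at an adjusted p under 0.05. On simulated data with 200 of 3589 genes changed by 1, recovery was 98%, 92.5%, 94% and 74% in these 4 tests. Noise there was independent between genes and arrays, with spreads drawn from the fitted prior. Recovery at the smaller changes of USP7, USP9X, USP6 and UBE4A is not given, so these shares do not say what smaller changes were missed. In the data, the test without inhibitor called 0.0% of all genes, so its simulated share of 94% does not carry over. UBA6 did not pass there at a mean of -1.01 (limma adjusted p = 0.0693). Alternatives were median centring, scaling to equal spread, all probes with a value, single probes, a block for the doxycycline day, leaving out each array, a robust prior, an adjusted p under 0.10 and a 1.5-fold rule.

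The members, lists and tests were chosen with earlier results of these data known. Genes named by rule are CHUK, USP25, every called gene, the lowest and highest of each role group, listed interferon-inducible and NF-kB or proteasome-bound members, and up to 5 untested ones; others were named after their values were seen, and the 3 genes outside the families were set apart after their symbols were seen.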

Additional observations from a re-analysis of the deposited data

Results flagged for a closer look

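For 2 of the 41 genes both arrays with inhibitor lay on one side of 0 and both without inhibitor on the other, beside 4.76% of all genes. The antisense transcript PSMA3-AS1 had -0.42 and -0.33 at 2 and 3 days with inhibitor, against 0.23 and 0.14 at 2 and 3 days without, a difference of -0.56 (limma adjusted p = 0.989). Without strand information in the labels, a cDNA probe for it cannot be told apart from signal of its sense partner. PSME3IP1 had 0.16 and 0.24 with inhibitor, against -0.01 and -0.05 without, a difference of 0.23 (limma adjusted p = 0.999). With the day block PSMA3-AS1 was called lower with inhibitor (limma adjusted p = 0.0329), where 25.3% of all genes were called. Neither difference passed, and both genes rested on 1 measured probe.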

How the results depend on the processing

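With inhibitor, the 3 called genes were still 3 after scaling to equal spread, with all probes, with a robust prior and by the 1.5-fold rule, and 2 after median centring. They became 14 with the doxycycline day as a replicate block (34.1%, beside 25.3% of all genes), 9 on single probes (22%, beside 18.2%) and 10 at an adjusted p under 0.10 (24.4%, beside 16.4%), and 2 to 10 when arrays were left out in turn (all genes 0.947% to 23.9%). Over the 4 arrays, the 6 called genes became 14 with the day block (34.1%, beside 31.2% of all genes), 12 on single probes (29.3%, beside 25.1%), 12 at an adjusted p under 0.10 (beside 23.3%) and 2 by the 1.5-fold rule (4.88%, beside 0.669%), and 2 to 14 with an array left out (all genes 0.334% to 29.9%). Without inhibitor, 0 became 5 after scaling (12.2%, beside 5.32% of all genes), 2 with the day block (4.88%, beside 1.56%), 2 on single probes (beside 1.67%), 1 at an adjusted p under 0.10 (2.44%, beside 0.167%) and 2 by the 1.5-fold rule (beside 0.919%), and 0 to 4 with an array left out (all genes up to 6.44%). For the difference, 0 became 1 by the 1.5-fold rule (beside 0.418% of all genes) and 0 to 1 with an array left out (all genes up to 3.32%), USP25 each time. The cause of these shifts was not tested. USP25 and UBA6 kept their calls over the 4 arrays and with inhibitor under each of the 9 refits run on genes, with adjusted p at most 0.0417 and 0.0189. The day block leaves 1 residual degree of freedom; the day is a treatment time that arrays share, not a stated pairing, and the 3-day minus 2-day changes with and without inhibitor correlated at 0.451 over 3589 genes, which are not independent. Leaving out an array leaves a group with 1 array, assumed to vary like the other group, and the mean of the groups then rests on fewer than 4 arrays.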
